A study of Homo sapiens with 6 samples.

Results

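The genes described here encode the NF-kB transcription factor subunits and the proteins that restrain them. They are the rows of the expression tables whose symbol is NFKB1, NFKB2, RELA, RELB, REL, NFKBIA, NFKBIB, NFKBIE, TNFAIP3 or BIRC3, which makes 10 of 23245 usable rows. The data come from the human pancreatic cancer line L3.6pl, an established line that was cultured with 10% fetal calf serum and not treated. The study holds 3 libraries whose titles read ARID1Ako and whose genotype label is ARID1A-deficient, and they are set against 3 parental libraries with wild-type ARID1A. The labels do not say whether the ARID1A-deficient cells are 1 clone or several, and no library restores ARID1A, so the loss of ARID1A and other differences between these cells cannot be told apart. Nothing in the labels says that the 3 libraries of a group came from separate cultures, so p-values measure the spread between these libraries, which may be technical.

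NF-kB is a family of dimers built from 5 subunits that share the Rel homology domain. In resting cells, IkB proteins hold the dimers in the cytoplasm, and the IkB kinase (IKK) complex marks the IkB proteins for destruction after a signal such as tumour necrosis factor or interleukin 1. In the canonical branch, dimers of RELA, REL and the NFKB1 product enter the nucleus. In the noncanonical branch, the NF-kB-inducing kinase NIK leads to processing of the NFKB2 product, which then acts with RELB. Several inhibitor and feedback genes, among them NFKBIA, TNFAIP3 and BIRC3, are themselves textbook targets of NF-kB. ARID1A is a subunit of the SWI/SNF complex, which moves nucleosomes.

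The promoter sequences are shown because 3 of the genes that differed between the groups have one in the table at hand, and because they carry the kind of site NF-kB binds. The 250 bases before each RefSeq start (build GRCh38.p14) were searched on both strands for the consensus kB motif. The promoter set at hand held 13 RefSeq starts for 8 of the 10 genes. RELB and NFKBIE had no entry in it, so their promoters were not searched. Capitals mark a match, or matches that overlap, read 5′ to 3′ on the gene's own strand. BIRC3 (chr11:102317234-102317483, plus strand), NFKBIA (chr14:35404750-35404999, minus strand) and the middle and last of 3 starts of NFKB2 (chr10:102394328-102394577 and chr10:102395455-102395704, plus strand) belong to genes that were higher in ARID1A-deficient cells. REL (chr2:60881324-60881573, plus strand) and TNFAIP3 (chr6:137867009-137867258, plus strand) are set beside them as genes that did not pass the test.
BIRC3: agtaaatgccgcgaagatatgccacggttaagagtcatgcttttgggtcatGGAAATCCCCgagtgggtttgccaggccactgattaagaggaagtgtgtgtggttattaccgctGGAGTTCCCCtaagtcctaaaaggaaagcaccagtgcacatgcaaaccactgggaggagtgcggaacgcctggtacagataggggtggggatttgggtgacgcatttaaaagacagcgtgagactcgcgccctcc
NFKBIA: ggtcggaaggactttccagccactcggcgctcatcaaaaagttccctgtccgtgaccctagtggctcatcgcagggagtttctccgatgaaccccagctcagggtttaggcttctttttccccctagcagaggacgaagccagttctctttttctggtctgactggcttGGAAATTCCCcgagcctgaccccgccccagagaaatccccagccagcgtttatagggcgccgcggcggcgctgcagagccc
NFKB2 middle start: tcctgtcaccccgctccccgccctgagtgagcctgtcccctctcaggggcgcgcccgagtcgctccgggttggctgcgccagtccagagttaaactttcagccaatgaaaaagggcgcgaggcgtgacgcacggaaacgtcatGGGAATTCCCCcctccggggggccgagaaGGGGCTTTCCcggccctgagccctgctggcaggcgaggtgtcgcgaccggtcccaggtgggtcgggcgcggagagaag
NFKB2 last start: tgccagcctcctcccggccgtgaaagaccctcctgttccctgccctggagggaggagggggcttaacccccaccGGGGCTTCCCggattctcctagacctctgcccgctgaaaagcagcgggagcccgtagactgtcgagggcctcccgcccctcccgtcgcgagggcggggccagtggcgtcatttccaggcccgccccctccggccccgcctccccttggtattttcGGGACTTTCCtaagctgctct
REL: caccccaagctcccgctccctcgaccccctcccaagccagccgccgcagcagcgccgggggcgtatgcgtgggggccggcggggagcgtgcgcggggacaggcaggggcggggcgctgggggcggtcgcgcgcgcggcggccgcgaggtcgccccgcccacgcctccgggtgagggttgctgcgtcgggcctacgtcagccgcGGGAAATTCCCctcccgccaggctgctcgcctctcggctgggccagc
TNFAIP3: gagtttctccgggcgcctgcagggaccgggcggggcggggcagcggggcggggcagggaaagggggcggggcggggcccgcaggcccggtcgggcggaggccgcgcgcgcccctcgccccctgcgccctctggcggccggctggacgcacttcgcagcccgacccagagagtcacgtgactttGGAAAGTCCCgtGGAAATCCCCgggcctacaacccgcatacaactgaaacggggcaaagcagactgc

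A match stood in 8 of the 13 starts and in at least 1 start of 7 of the 8 genes, all but RELA. Of all 35116 starts in the table, 9.96% held one, and 11.8% of all 27305 genes had one in at least 1 start. BIRC3 had matches that began 199 and 135 bases before the start, NFKBIA had one at 81 bases, and TNFAIP3 had a pair at 67 and 55 bases. NFKB1 and NFKBIB, whose levels did not pass the test, also had a match, so matches occurred both among the genes that rose and among those that did not pass. A match is a run of letters and does not show binding.

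Values are FPKM, which the authors scaled to transcript length and to each library. The number of fragments per library is not analysed here. Relative depth was read from the most common ratio against parental library 1 among rows above 0 and under 0.2 FPKM in every library. It was 0.732 to 1.27 in ARID1A-deficient and 0.785 to 1.04 in parental libraries, with parental library 1 set to 1. This reading holds if values were scaled to the library total. ARID1A itself measured 3.55, 3.28 and 3.61 FPKM in ARID1A-deficient libraries, against 11.8, 6.76 and 9.42 FPKM in parental libraries, so the groups did not overlap but the transcript was still present. Epithelial markers fitted the label: 8 of 8 were measured, with a summed level of 4566 to 5779 FPKM in ARID1A-deficient and 6302 to 9860 FPKM in parental libraries. In limma 1 of the 8 was higher and 0 were lower (before adjustment, p was under 0.05 for 2 higher and 4 lower ones), with a median log2 fold change of -0.42. Without parental library 2, 2 were higher and 3 lower, and 5 were lower with quantile normalization and with the replicate block. The higher one, CLDN4, which encodes a tight junction claudin, measured 17.6, 21.6 and 19.8 FPKM in ARID1A-deficient libraries, against 5.54, 5.31 and 5.42 FPKM in parental libraries (3.62-fold, limma adjusted p = 7.90e-05), and kept its call in all 14 alternatives. The part of these differences in the results was not tested. Of 14 leukocyte markers, 6 were listed at 0 in every library and 1, CD68, was high enough to test. PTPRC, which marks all leukocytes, was at most 0.0442 FPKM and at 0 in 5 of the 6 libraries. The summed leukocyte level was 5.98 to 7.77 FPKM in ARID1A-deficient and 8.61 to 9.91 FPKM in parental libraries, almost all of it CD68, which fell 1.42-fold (adjusted p = 0.0346, not past the threshold with quantile normalization or without ARID1A-deficient library 1 or 3 or parental library 1 or 3, where it reached 0.136 at most). Of 12 fibroblast and endothelial markers, DCN and LUM were listed at 0 throughout and 2 were tested. The summed level of these markers was 8.96 to 9.53 FPKM in ARID1A-deficient and 8.59 to 10.1 FPKM in parental libraries, mostly from CDH5, an endothelial cadherin gene. PECAM1, which encodes an adhesion molecule of endothelium, fell 1.63-fold (adjusted p = 0.0254), but did not pass when any library other than parental library 2 was left out (highest adjusted p = 0.0982).

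In ARID1A-deficient cells, 4 of the 10 genes rose: BIRC3, RELB, NFKB2 and NFKBIA. None passed limma in the lower direction (1, REL, at an unadjusted p under 0.05), and 6 did not pass. All 10 were abundant enough to be tested. Among all 12826 tested genes, 15.9% passed the Benjamini-Hochberg adjusted threshold of 0.05, with 7.82% higher and 8.11% lower. The median log2 fold change was 0.23 over the 10 genes and -0.01 over all tested genes. The groups did not overlap for 5 genes with higher and 1 with lower values in ARID1A-deficient libraries, where 35.3% of all tested genes did not overlap. The 4 genes that rose passed in each of the 14 alternative fits, which included leaving out every library in turn.

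**Figure D1:**
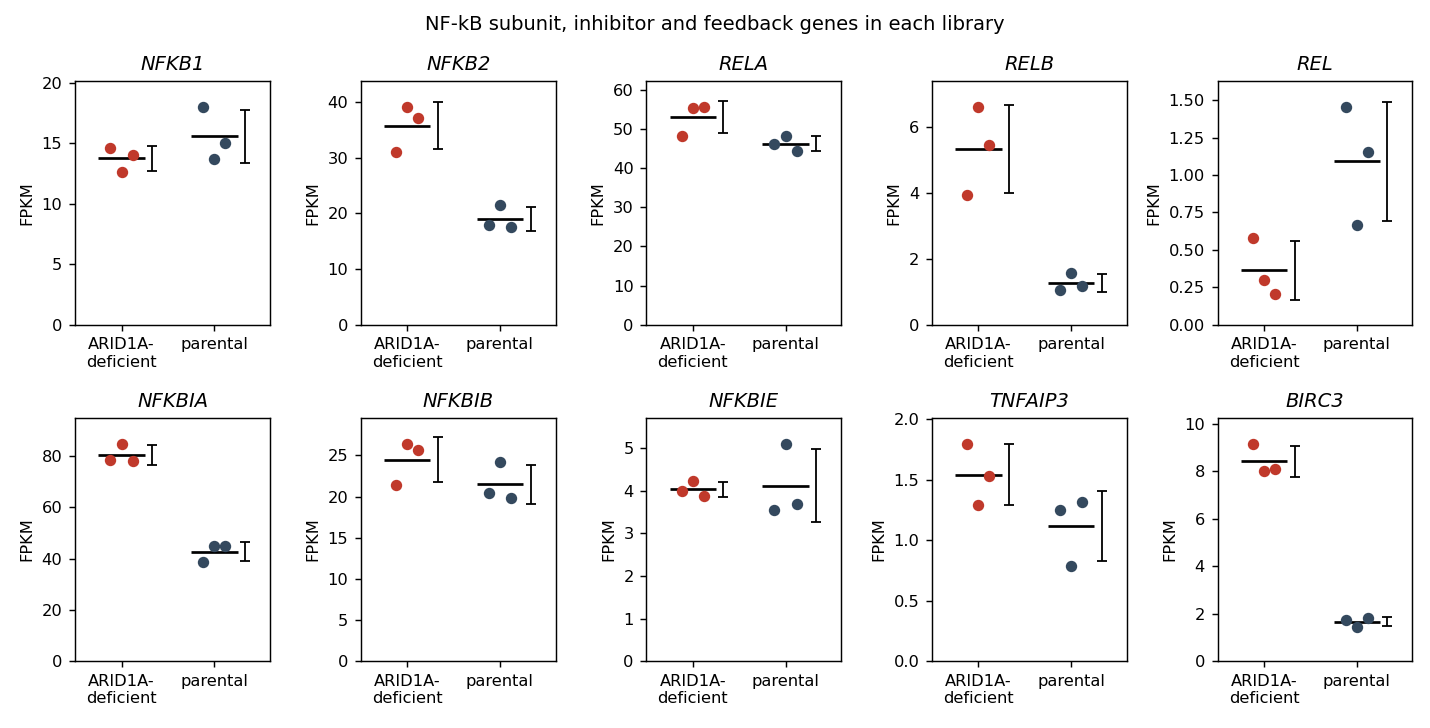
FPKM of the 10 genes in each library, with ARID1A-deficient libraries left and parental libraries right in every panel. Points are libraries 1 to 3 from left to right, the bar is the group mean and the error bar 1 SD (n = 3 each). NFKB2, RELB, NFKBIA and BIRC3 points lie above all parental points with a clear gap, and REL points lie below them.

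Among the subunits, the largest change was in RELB, the partner of processed NFKB2 in the noncanonical branch. RELB measured 3.94, 6.59 and 5.43 FPKM in ARID1A-deficient libraries, against 1.04, 1.57 and 1.18 FPKM in parental libraries. The lowest ARID1A-deficient value was thus well above the highest parental value. RELB averaged 5.32 ± 1.33 FPKM in ARID1A-deficient and 1.26 ± 0.276 FPKM in parental cells (SD, n = 3 each), 4.21-fold higher, and the log2 fold change of FPKM + 1 was 1.47 (SE 0.18, limma adjusted p = 0.00228). With a pseudocount of 0.1 it was 1.98, since a pseudocount of 1 understates the change of low genes.

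NFKB2, which encodes the p100 precursor that is an inhibitor until it is cut to p52, measured 30.9, 39.1 and 37.2 FPKM in ARID1A-deficient libraries, against 17.9, 21.5 and 17.5 FPKM in parental libraries. The groups were apart. It averaged 35.7 ± 4.27 FPKM in ARID1A-deficient and 19.0 ± 2.19 FPKM in parental cells, 1.88-fold higher (log2 fold change 0.88, SE 0.12, limma adjusted p = 0.00436). A level per gene does not show how much p100 is processed.

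NFKB1, the source of p105 and p50, measured 14.7, 12.6 and 14.1 FPKM in ARID1A-deficient and 18.01, 13.7 and 15.1 FPKM in parental libraries, and the groups overlapped. Its log2 fold change was -0.16 with a 95% interval from -0.44 to 0.12 (limma adjusted p = 0.419). RELA, the main activating subunit in most cell types, measured 48.3, 55.3 and 55.5 FPKM in ARID1A-deficient and 46.2, 48.2 and 44.4 FPKM in parental libraries. The groups touched, since ARID1A-deficient library 1 lay only just above parental library 2. Its log2 fold change was 0.19, with a 95% interval from -0.03 to 0.42 (limma adjusted p = 0.239). These intervals leave room for changes smaller than those of RELB and NFKB2.

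REL, the c-Rel subunit best known from lymphocytes, was the member with the lowest level. It measured 0.5805, 0.301 and 0.206 FPKM in ARID1A-deficient libraries, against 1.45, 0.665 and 1.15 FPKM in parental libraries. Every ARID1A-deficient value was below every parental value, but parental library 2 was close to ARID1A-deficient library 1. The log2 fold change was -0.61 (SE 0.17, 95% interval -1.02 to -0.20, limma adjusted p = 0.0567), just short of the threshold. Mean REL was 3.01-fold lower in ARID1A-deficient cells. With a pseudocount of 0.1 the log2 fold change was -1.39 (limma adjusted p = 0.0597). REL passed without parental library 2 (adjusted p = 0.00450), with quantile normalization (0.0243) and with each library's slope on transcript length removed (0.0326), and its adjusted p ranged from 0.0666 to 0.196 when any other single library was left out. At such a level a library's value rests on few fragments. Genes around REL on chromosome 2 were lower as well: the 40 nearest tested genes had a median log2 fold change of -0.34, with 9 lower and 1 higher, and their part in the REL value was not tested.

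On the FPKM scale, which is per transcript length, the levels in ARID1A-deficient cells ran from RELA through NFKB2, NFKB1 and RELB to REL, with no overlap between neighbours in that order. In parental cells the order of means was the same, but NFKB2 (17.5 to 21.5 FPKM) overlapped NFKB1 (13.7 to 18.01 FPKM), and RELB (1.04 to 1.57 FPKM) overlapped REL (0.665 to 1.45 FPKM). NFKB2 was 2.11, 3.09 and 2.64 times NFKB1 in ARID1A-deficient libraries, against 0.995, 1.56 and 1.16 times in parental libraries. RELB was 6.79, 21.9 and 26.3 times REL in ARID1A-deficient and 0.718, 2.37 and 1.02 times in parental libraries. REL was only 0.206 to 0.58 FPKM in ARID1A-deficient libraries, so their ratios to REL rest on few fragments. A ratio within a library does not depend on how that library was scaled.

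The make-up of the subunit transcripts shifted in the same terms. NFKB2 made up 31.4 to 34.3% of the summed FPKM of the 5 subunits in ARID1A-deficient libraries, against 21.2 to 25.1% in parental libraries. The RELB share was 4.01 to 5.78% in ARID1A-deficient and 1.23 to 1.84% in parental libraries. RELA took 48.6 to 49.4% in ARID1A-deficient libraries and 54.6 to 56.3% in parental libraries, although its own level was not lower, because shares sum to a fixed total. NFKB1 took 11.1 to 14.9% and REL 0.183 to 0.590% in ARID1A-deficient libraries, against 16.0 to 21.3% and 0.776 to 1.72% in parental libraries. The 5 shares sum to a fixed total, so they are not separate results, and the groups overlapped in the level of NFKB1 itself. None of the 5 shares overlapped between groups, and each gave p = 0.10 in a two-sided exact permutation test, the smallest p that 3 against 3 libraries allow. That test therefore cannot pass 0.05 here, and no other test of the shares was run.

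**Figure D2:**
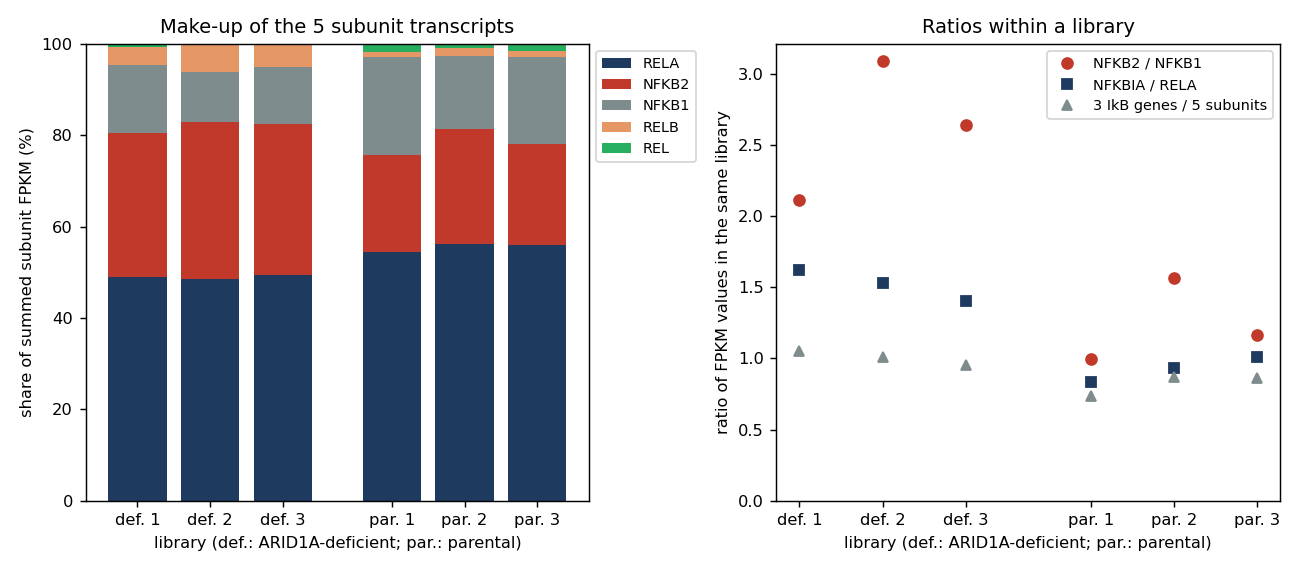
Left, share of each subunit gene in the summed FPKM of the 5 subunits, in percent, with 1 stacked bar per library. Right, FPKM ratios within each library: NFKB2 to NFKB1 (circles), NFKBIA to RELA (squares) and the 3 IkB genes to the 5 subunits (triangles). ARID1A-deficient libraries stand left of parental libraries in both panels. The NFKB2 band is wider in the ARID1A-deficient bars, and all 3 ratios are higher in each ARID1A-deficient library than in any parental library.

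Of the 3 classical IkB genes, only NFKBIA passed. NFKBIA encodes IkB-alpha, the inhibitor that is destroyed and remade fastest after a signal. NFKBIA measured 78.3, 84.7 and 77.9 FPKM in ARID1A-deficient libraries, against 38.5, 44.9 and 44.8 FPKM in parental libraries, with a wide gap between the groups. It averaged 80.3 ± 3.79 FPKM in ARID1A-deficient and 42.7 ± 3.67 FPKM in parental cells (SD, n = 3 each), 1.88-fold higher (log2 fold change 0.90, SE 0.10, limma adjusted p = 0.00169). Its neighbours on chromosome 14 went the other way: the median log2 fold change of the 40 nearest tested genes was -0.31, with 10 lower and 0 higher in limma.

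NFKBIB, which encodes the slower-turning IkB-beta, measured 21.4, 26.4 and 25.7 FPKM in ARID1A-deficient and 20.5, 24.2 and 19.9 FPKM in parental libraries. The groups overlapped, and the log2 fold change of 0.18 had a 95% interval from -0.10 to 0.46 (limma adjusted p = 0.372). NFKBIE, which encodes IkB-epsilon, measured 3.996, 4.23 and 3.87 FPKM in ARID1A-deficient and 3.55, 5.10 and 3.69 FPKM in parental libraries. ARID1A-deficient values lay inside the parental range, with a 95% interval for the log2 fold change from -0.33 to 0.30 (limma adjusted p = 0.971). NFKBIA made up 72.5 to 75.5% of the summed FPKM of these 3 genes in ARID1A-deficient libraries, against 60.5 to 65.5% in parental libraries.

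Both the inhibitors and the subunits had higher sums in ARID1A-deficient cells. The 3 IkB genes summed to 104 to 115 FPKM in ARID1A-deficient and 62.5 to 74.2 FPKM in parental libraries. The 5 subunits summed to 98.4 to 114 FPKM in ARID1A-deficient and 79.3 to 85.7 FPKM in parental libraries. NFKB2 was counted here as a subunit, although its product p100 is an inhibitor until it is cut. The inhibitor to subunit ratio was 1.05, 1.01 and 0.955 in ARID1A-deficient libraries, against 0.739, 0.866 and 0.862 in parental libraries. The difference in its log2 was 0.29 (two-sided exact permutation p = 0.10, the smallest that test allows here), and 0.53 with NFKBIA alone as the inhibitor. NFKBIA was 1.62, 1.53 and 1.40 times RELA in ARID1A-deficient and 0.834, 0.931 and 1.01 times RELA in parental libraries.

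BIRC3 had the largest log2 fold change of the 10 genes. It encodes cIAP2, a ubiquitin ligase that protects cells from death by tumour necrosis factor and that, with cIAP1, keeps NIK low. BIRC3 measured 9.15, 8.01 and 8.08 FPKM in ARID1A-deficient libraries, against 1.75, 1.45 and 1.82 FPKM in parental libraries. The libraries of each group were close together and the groups far apart. It averaged 8.41 ± 0.638 FPKM in ARID1A-deficient and 1.68 ± 0.198 FPKM in parental cells (SD, n = 3 each), 5.02-fold higher (log2 fold change 1.82, SE 0.10, limma adjusted p = 8.16e-05). BIRC2, the gene next to it and the source of cIAP1, measured 40.8, 33.1 and 34.3 FPKM in ARID1A-deficient and 33.6, 23.8 and 31.4 FPKM in parental libraries, and the groups overlapped (log2 fold change 0.28, limma adjusted p = 0.262). BIRC3 was thus 0.224 to 0.242 times BIRC2 in ARID1A-deficient libraries, against 0.0521 to 0.0609 times in parental libraries. The 40 tested genes nearest to BIRC3 on chromosome 11 had a median log2 fold change of -0.11, with 4 higher and 3 lower.

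TNFAIP3 encodes A20, an enzyme that removes and edits ubiquitin chains and so shuts down signalling to IKK. TNFAIP3 measured 1.80, 1.30 and 1.53 FPKM in ARID1A-deficient libraries, against 1.25, 0.791 and 1.32 FPKM in parental libraries. The groups overlapped, and the log2 fold change of 0.27 had a 95% interval from -0.06 to 0.59 (limma adjusted p = 0.248). TNFAIP3 sits on chromosome 6 among genes that were higher: the 40 nearest tested genes had a median log2 fold change of 0.45, and 20 of them were called higher and 0 lower in limma. On the scale of log2(FPKM + 1) its own change was smaller than that median. With a pseudocount of 0.1, which understates low genes less, the TNFAIP3 log2 fold change was 0.446. The median of its neighbours was not computed with that pseudocount. The part of this stretch in the TNFAIP3 value was not tested.

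For the other members that rose, the neighbours had medians close to that of all genes. The 40 genes nearest to NFKB2 had a median log2 fold change of 0.04 with 1 higher and 0 lower, and those nearest to RELB had 0.09 with 1 higher and 2 lower.

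**Figure D3:**
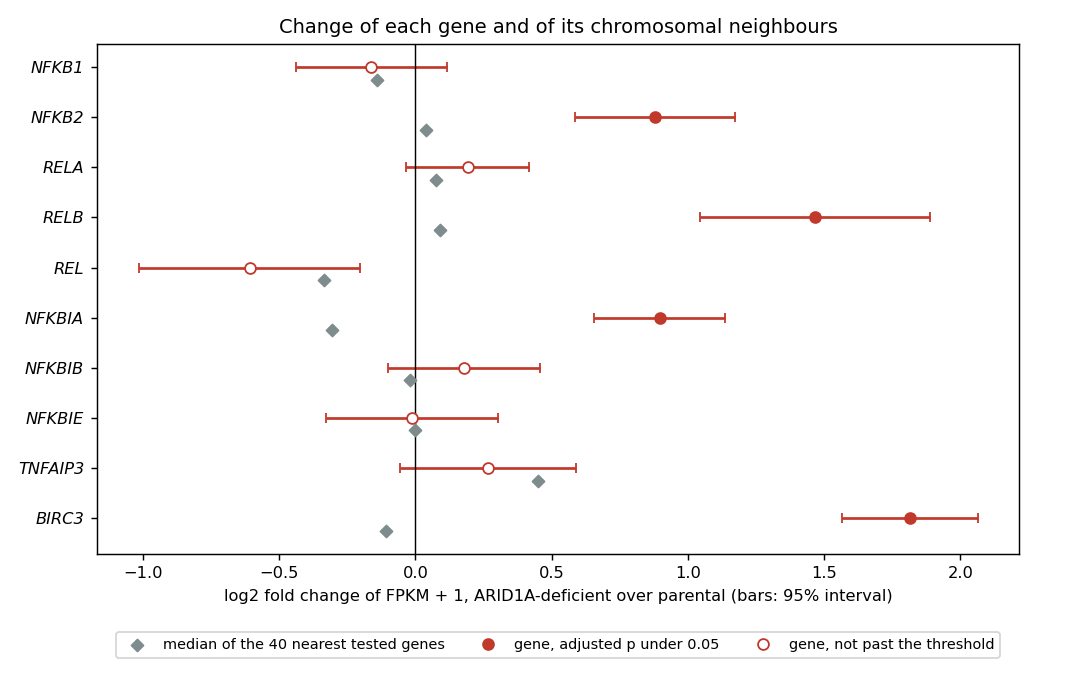
Log2 fold change of FPKM + 1, ARID1A-deficient over parental, for each gene (circles, filled where the adjusted p was under 0.05) with its 95% interval, and the median of the 40 nearest tested genes on the chromosome (diamonds). BIRC3, RELB, NFKB2 and NFKBIA lie far to the right of their diamonds, REL lies to the left of a diamond that is itself below 0, and TNFAIP3 lies to the left of a diamond at 0.45.

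BIRC3 had the smallest adjusted p of the 10 genes. It was compared with all tested genes outside the 10 by the distance between mean-centred log2 values over the 6 libraries. CDH6, a cadherin gene, was nearest (distance 0.172), followed by PDE4B, a phosphodiesterase gene that breaks down cyclic AMP (0.1999), and SPRY2, a feedback inhibitor of growth factor receptor signalling (0.206). CDH6 measured 3.54, 2.74 and 2.75 FPKM in ARID1A-deficient and 0.196, 0.170 and 0.230 FPKM in parental libraries. With 6 libraries in 2 groups, a short distance mostly reflects a group difference of similar size.

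Other genes of the pathway were read from lists. Among 12 IKK and upstream kinase genes, all tested, 2 rose, 0 fell (1 lower at an unadjusted p under 0.05) and 10 did not pass, with a median log2 fold change of 0.04. Thus 16.7% of them were called, close to the 15.9% of all tested genes. MAP3K14, which encodes NIK, the kinase at the head of the noncanonical branch, measured 5.24, 6.33 and 5.77 FPKM in ARID1A-deficient libraries, against 3.39, 4.18 and 3.72 FPKM in parental libraries. The groups did not overlap, and it rose 1.54-fold (log2 fold change 0.51, SE 0.11, limma adjusted p = 0.0227). MAP3K8, the kinase TPL2, which is bound and held by the NFKB1 product p105, measured 1.61, 1.46 and 1.46 FPKM in ARID1A-deficient and 0.871, 0.625 and 0.570 FPKM in parental libraries (2.19-fold higher, log2 fold change 0.58, limma adjusted p = 0.0101). At this low level the pseudocount matters, and with a pseudocount of 0.1 the MAP3K8 log2 fold change was 1.05. The MAP3K14 call ended without ARID1A-deficient library 2 or 3 or parental library 1 or 3 (highest adjusted p = 0.0986), and that of MAP3K8 without parental library 3 (0.0554), so 1 of the 2 remained in some of these fits and 0 without parental library 3.

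The 3 core IKK genes were chosen for mention after their values were seen. CHUK, IKBKB and IKBKG had log2 fold changes of 0.06, 0.02 and 0.01, and their groups overlapped. The 95% interval was widest for CHUK, from -0.35 to 0.46.

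Of 4 atypical IkB genes, most of whose products are nuclear and bind p50 or p52 dimers, 3 were tested and none passed limma. At an unadjusted p under 0.05, 1 was higher. It passed as higher without parental library 2, with quantile normalization and with the replicate block. That gene was BCL3, named after its values were seen, at 96.1, 125 and 124 FPKM in ARID1A-deficient and 66.9, 94.9 and 69.4 FPKM in parental libraries (log2 fold change 0.58, limma adjusted p = 0.0737, and 0.000631 to 0.242 over the alternatives). The gap between the groups was small, since parental library 2 reached 94.9 FPKM.

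Adaptors and ubiquitin ligases between receptors and IKK had 24 of 25 genes tested, with 2 higher, 3 lower and 19 not past the threshold (median log2 fold change 0.07). The share called was 20.8%, against 15.9% of all tested genes. CARD10, the scaffold that joins receptors to BCL10 and MALT1, fell to 24.5, 27.5 and 28.8 FPKM in ARID1A-deficient libraries, against 48.9, 48.9 and 46.7 FPKM in parental libraries (log2 fold change -0.82, SE 0.09, limma adjusted p = 0.00152). CARD10 kept its call in all 14 alternatives. RIPK1, the kinase and scaffold of the tumour necrosis factor receptor complex, rose 1.44-fold (adjusted p = 0.0199), and IRAK2, a kinase of interleukin 1 receptor signalling, rose 1.67-fold (adjusted p = 0.0428).

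The higher calls in that list changed with the libraries used. They numbered 4 without parental library 2 and 1 without parental library 1, and there were 0 when parental library 3 or 1 of the ARID1A-deficient libraries was left out. Lower calls numbered 4 without parental library 2 and 2 when 1 of the others was dropped. The highest adjusted p was 0.101 for RIPK1 and 0.160 for IRAK2. The IRAK2 call also ended when low genes were kept in (adjusted p = 0.0553) and with no robust moderation (0.0514).

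Other negative regulators of the pathway, such as deubiquitinases and their adaptors, had 17 of 19 genes tested, with 1 higher, 0 lower in limma (0 also at an unadjusted p under 0.05) and 16 not past the threshold. This is 5.88% called, less than the 15.9% of all tested genes. The median log2 fold change was -0.06. PDLIM2, which promotes the breakdown of nuclear RELA, rose 1.69-fold (adjusted p = 0.0434), but 0 were higher when any library other than parental library 2 was left out (highest adjusted p = 0.164 for PDLIM2). Its call also ended when low genes were kept in (adjusted p = 0.0598) and with no robust moderation (0.0562).

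Receptors that feed NF-kB had 12 of 19 genes tested, with 0 higher in limma (1 at an unadjusted p under 0.05), 1 lower and 11 not past the threshold. Limma thus called 8.33% of them, less than the 15.9% of all tested genes. Without parental library 1 or 2, 1 was higher, and without parental library 2, 2 were lower. IL18R1, a subunit of the interleukin 18 receptor, measured 2.74, 1.92 and 2.13 FPKM in ARID1A-deficient libraries, against 25.3, 18.5 and 24.5 FPKM in parental libraries. That is 10.1-fold lower in ARID1A-deficient cells (log2 fold change -2.86, SE 0.15, limma adjusted p = 5.80e-05).

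Of 12 ligand genes, 1 was tested. IL18, the cytokine that signals through IL18R1, rose to 36.5, 44.4 and 36.8 FPKM in ARID1A-deficient libraries, against 19.0, 30.7 and 23.5 FPKM in parental libraries (log2 fold change 0.69, limma adjusted p = 0.0426). This call ended without any library other than parental library 2 (highest adjusted p = 0.148), when low genes were kept in (0.0582) and with no robust moderation (0.0541). TNF, LTA, LTB, CD40LG and IL17A were listed at 0 in every library. TNF, LTA and LTB lie on chromosome 6 in the stretch from TUBB to LTB, where 22 of 27 protein-coding rows (81.5%) were listed at 0 in all libraries, against 16.6% of all 16974 protein-coding rows. TUBB, the gene of a tubulin used by nearly every cell, was among them, as were the target gene IER3 and the atypical IkB gene NFKBIL1. A 0 in this stretch can be a failed estimate, so these rows do not show whether the cells make tumour necrosis factor or lymphotoxin transcripts.

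Of 40 textbook NF-kB target genes other than the 10, 25 were tested, with 7 higher, 4 lower and 14 not past the threshold, so 44.0% were called where 15.9% of all tested genes were. The median log2 fold change was 0.20. The list was drawn up with earlier results of these data known, so this share is a description. BCL3, NFKBIZ, MAP3K8, RIPK2, TRAF1, TNIP1, ZC3H12A and LTB also stand in lists described above. The higher call of MAP3K8 is thus counted among the kinases and among the target genes. Lower calls numbered 6 without parental library 2, but only 2 when parental library 3 or ARID1A-deficient library 2 or 3 was left out, and higher calls ranged from 6 to 10. ICAM1, an adhesion molecule, measured 4.19, 4.43 and 4.24 FPKM in ARID1A-deficient and 0.0646, 0.192 and 0.232 FPKM in parental libraries. IL8, a neutrophil chemokine gene, measured 9.44, 8.01 and 8.53 FPKM in ARID1A-deficient and 1.53, 1.22 and 1.41 FPKM in parental libraries. TNFAIP2, induced by tumour necrosis factor, and LCN2, the secreted lipocalin 2, went the other way. TNFAIP2 measured 3.595, 3.80 and 4.41 FPKM in ARID1A-deficient and 50.7, 44.7 and 46.7 FPKM in parental libraries, and LCN2 measured 1.57, 1.59 and 0.928 FPKM in ARID1A-deficient and 29.8, 43.3 and 35.1 FPKM in parental libraries. The highest limma adjusted p of these 4 genes was 5.26e-05.

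**Figure D4:**
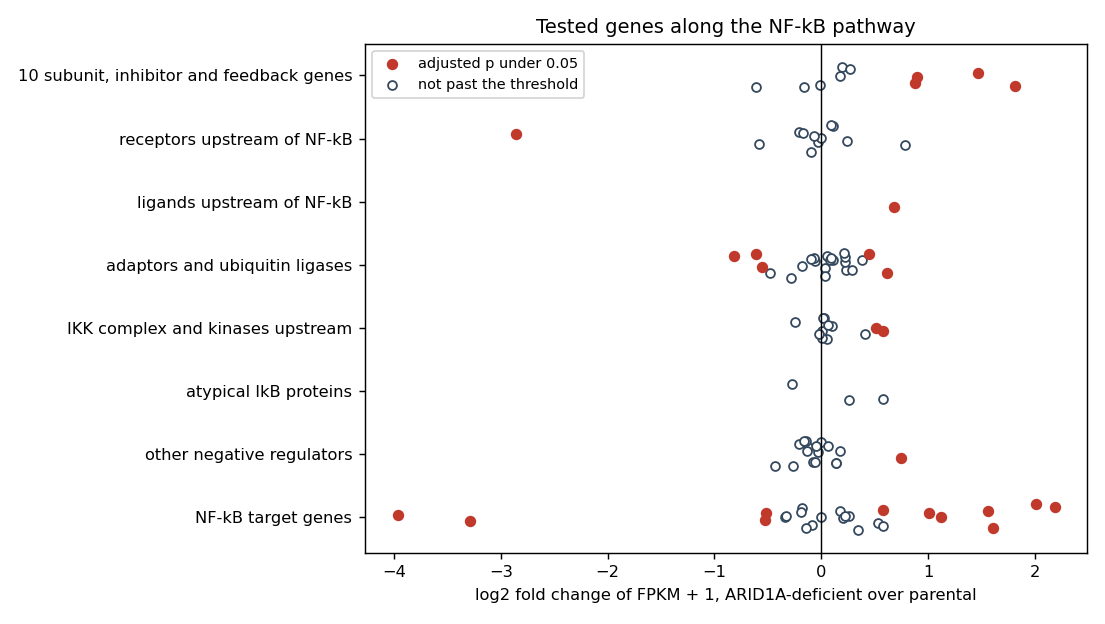
Log2 fold change of FPKM + 1, ARID1A-deficient over parental, for each tested gene (circle) of the 10 genes and of 7 pathway lists, filled where the limma adjusted p was under 0.05. Most receptor, adaptor, kinase and regulator genes lie near 0, while 4 of the 10 genes and target genes on both sides lie away from it. Circles are spread vertically only to keep them apart. A gene that stands in several lists is drawn in each.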

How the data were processed

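Polyadenylated RNA of 6 libraries was prepared from 500 ng total RNA with a kit that does not mark strand, per the labels' protocols. The authors deposited 1 FPKM value per gene and library. The submitters' processing notes name build GRCh37 (hg19) and the tools TopHat2 (version 2.1.1), Cuffnorm (version 2.2.1.2) and Cuffdiff (version 2.2.1.5). In the sources used here, the scaling option and the annotation are not given. FPKM scaling hides any overall change of RNA per cell. Of 23273 rows, 28 whose symbol had become a date were left out.

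Groups came from the titles. Log2(FPKM + 1) of the 12826 genes whose mean reached 0.5 FPKM was fitted with limma 3.58.1 (R 4.3.3; trend, robust), group as the only term, with two-sided p-values adjusted by the Benjamini-Hochberg method and a threshold of 0.05. A fold is the ratio of mean FPKM values. The subunit shares and the log2 inhibitor to subunit ratio, also with NFKBIA alone, were tested by exact permutation (SciPy 1.17.1). The other ratios, and the share of NFKBIA among the IkB genes, were not tested. Chromosomal order came from a RefSeq table of GRCh38.p14, taking 20 tested genes on each side. The members and the lists were chosen with earlier results of these data known. Named are the members, ARID1A, up to 4 called genes with the smallest adjusted p per list, all called kinases, and the 3 profiles nearest to the leading member; others are marked as chosen after their values were seen or serve as background (CDH5, PTPRC, DCN, LUM, TUBB, BIRC2 and genes listed at 0). The result of a gene that the naming rule includes is not reported here. Alternatives changed the pseudocount, filter, scaling, moderation, length trend, replicate block and libraries used.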

Additional observations from a re-analysis of the deposited data

How the results depend on the processing

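The calls of BIRC3, RELB, NFKB2 and NFKBIA held in all 14 alternative fits, and the count of higher members was 4 in each. The count of lower members, 0 as reported, was 1 (REL) with quantile normalization, with the length slope removed and with the replicate block, and 0 to 1 when single libraries were left out. All genes called numbered 2043, 964 to 4079 when single libraries were left out, and 4049 with the replicate block. Same-numbered libraries deviated together with r = 0.219 and 0.217 for numbers 1 and 2 but -0.0131 for number 3, where ARID1A-deficient library 3 correlated best with parental library 2 (0.0568), so the numbers were not taken to pair the libraries; under the block the REL adjusted p was 0.000978. NFKBIE, at -0.01, changed sign to log2 fold changes of 0.0048 with median-ratio scaling, 0.012 without ARID1A-deficient library 3 and 0.12 without parental library 2, and ranged from -0.089 to 0.12 when single libraries were left out. The log2 inhibitor to subunit ratio difference of 0.29 was 0.53 with NFKBIA alone. Of 30 named genes, 6 members had no call to lose, and 8 of the others lost theirs in at least 1 alternative. With a minimum mean of 3 FPKM, REL and TNFAIP3 were not tested. The causes were not tested.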
